A study of Mus musculus with 16 samples.

Results

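Mouse liver tumours with a mutation in Ctnnb1 or in Ha-ras were each compared with non-tumour liver of the same treatment, and the difference between these changes is described here, gene by gene. The value for a gene is an interaction on the log2 scale: the change in Ctnnb1 tumours (against phenobarbital controls) minus the change in Ha-ras tumours (against untreated controls). A positive interaction means that the change in Ctnnb1 tumours lay above that in Ha-ras tumours, and a negative one that it lay below. All 16 arrays of the series entered the fit, 10 of them in the Ctnnb1 comparison and 6 in the Ha-ras comparison. The interaction was computed for 18193 genes, that is every gene with a probe set of a single symbol, each by the probe set with the highest mean. A gene passed a comparison in limma where its p, adjusted by Benjamini-Hochberg across all genes, was under 0.05. Only such a gene is said to have risen or fallen.

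The samples were 7 Ctnnb1-mutated tumours and 3 control livers of mice given phenobarbital, a barbiturate that promotes liver tumours, and, from mice on plain drinking water, 3 tumours mutated in Ha-ras and 3 control livers. All mice were C3H/HeJ males, and the study's design text has them injected once with the carcinogen diethylnitrosamine at an age of 2 or 6 weeks, with 10 or 90 µg for each g of weight. It then gives, after 2 weeks, a diet with 0.05% phenobarbital or without it for 28 to 36 weeks. The sample labels give instead 27 weeks of drinking water with or without phenobarbital, and the treatment protocol 28 days of water with 0.05%, so the route and length of the course are not settled. Which dose of carcinogen and which age belong to which array is not given, and the labels do not state that arrays came from separate animals. The p-values therefore measure the spread between these samples, which may be partly technical. Mutation and phenobarbital go together in this design: every Ctnnb1 sample was treated and every Ha-ras sample was not, so that an effect of the mutation on a change and an effect of phenobarbital on it cannot be told apart.

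Values are log2 intensities after RMA, and the array medians lay between 5.03 and 5.10. For Gapdh, the control probe sets of the 3′ end read higher than those of the 5′ end by 2.70 in phenobarbital control 6 and by −0.15 to 0.32 in the other 15 arrays. Ctnnb1 tumour 6 was low for the genes of the Wnt and pericentral lists described below. Hepatocyte markers such as albumin and transthyretin were near the top of the scale in every array (Alb 14.86 to 15.06).

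Ctnnb1 encodes beta-catenin, the protein that carries the Wnt signal into the nucleus, where it acts with TCF factors on target genes. In the liver lobule that signal is strong around the central vein and sets the pericentral programme of hepatocytes, while periportal hepatocytes express other enzymes. Ha-ras encodes a GTPase upstream of the RAF, MEK and ERK kinases, and active ERK induces immediate early transcription factors and its own inhibitors. Phenobarbital acts through the nuclear receptor CAR, which induces drug-metabolising enzymes.

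The interaction passed for 988 genes (5.43% of those tested), positive in 389 (2.14%) and negative in 599 (3.29%). It was at least 2-fold in 666 of them, and 3321 genes had an unadjusted p under 0.05. In the separate comparisons, 1105 genes rose (6.07%) and 1087 fell (5.97%) in Ctnnb1 tumours, and 1311 rose (7.21%) and 1151 fell (6.33%) in Ha-ras tumours. Counts of list members that rose or fell, given below, are to be read against these shares. Most genes that passed in one tumour type alone did not pass the interaction: of 1481 genes that passed in Ctnnb1 tumours and not in Ha-ras tumours, 212 passed the interaction, and of 1751 genes with the reverse pattern 611 did. The median standard error was 0.208 for the interaction, 0.134 for the Ctnnb1 change and 0.159 for the Ha-ras change. Over all genes the median was 0.01 for the interaction, −0.03 for the Ctnnb1 change and −0.04 for the Ha-ras change.

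Both changes passed in 711 genes, which are 32.4% of the 2192 genes called in Ctnnb1 tumours and 28.9% of the 2462 called in Ha-ras tumours. Of these, 628 moved the same way and 83 (0.456% of all genes) moved in opposite directions, 38 up in Ctnnb1 and down in Ha-ras tumours and 45 the reverse. All 83 also passed the interaction. A gene was counted as moving in Ctnnb1 tumours only where it passed the interaction and the Ctnnb1 comparison, did not pass the Ha-ras comparison and had a Ha-ras change under 0.5 (log2) in size. That class held 169 genes (0.929%), 81 higher and 88 lower. The mirror class for Ha-ras tumours held 536 genes (2.95%), 351 higher and 185 lower. A further 34 genes moved the same way by unequal amounts, 33 of them further in Ha-ras tumours. The rest passed in one comparison with a change of 0.5 or more in the other (43 Ctnnb1 and 75 Ha-ras genes), or in neither comparison (48).

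**Figure D1:**
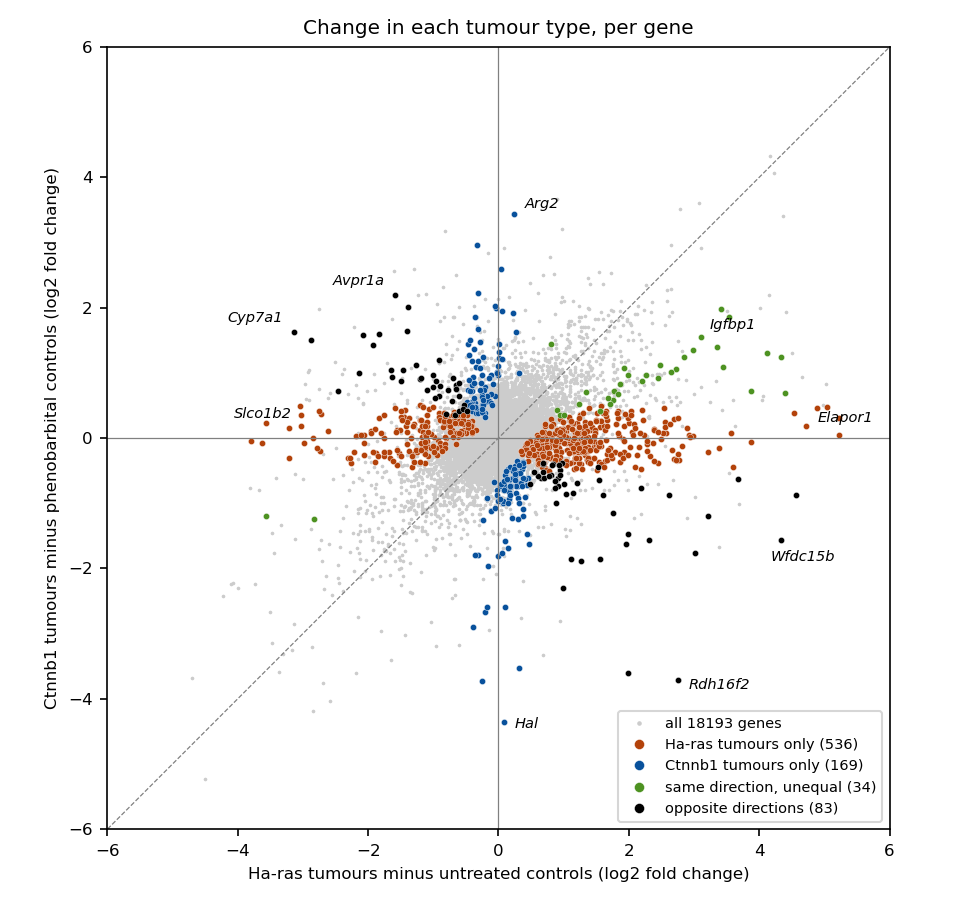
Each point is 1 of 18193 genes. The x axis is the log2 change in Ha-ras tumours against untreated controls, and the y axis that in Ctnnb1 tumours against phenobarbital controls. Colours mark the 83 genes that moved in opposite directions, the 169 of Ctnnb1 tumours only and the 536 of Ha-ras tumours only. These lie in the off-diagonal corners and along the axes. A further colour marks the 34 genes that moved the same way by unequal amounts.

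The interaction can also be read as the gap between the tumour types less the gap between their controls. The tumour gap was the larger in 81 of the 83 opposite genes, in 143 of the 169 Ctnnb1 genes and in 453 of the 536 Ha-ras genes. In the others the phenobarbital and untreated controls differed more than the tumours did. Among the 17205 genes that did not pass the interaction, the tumour gap was the larger in 8728. The classes were called from the tumour changes in these same data, so their counts are no separate evidence. The median size of the interaction was 1.89 in the opposite class, 0.99 in the Ctnnb1 class and 1.19 in the Ha-ras class, and in the opposite class the Ha-ras change was the larger in 66 genes.

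Among the 38 genes up in Ctnnb1 and down in Ha-ras tumours, the largest interaction was that of Cyp7a1. Cyp7a1, whose step limits the rate of bile acid synthesis, read 9.39, 10.47 and 11.00 in phenobarbital controls and 11.10 to 12.92 (median 11.91) in Ctnnb1 tumours. It read 12.51, 10.05 and 11.41 in untreated controls and 8.22, 7.40 and 8.95 in Ha-ras tumours. Tumours and controls did not overlap in either comparison, and the tumour types lay on opposite sides of their controls. The change was 1.62 ± 0.48 (standard error of the fit, here and below) in Ctnnb1 tumours and −3.13 ± 0.57 in Ha-ras tumours, an interaction of 4.75 ± 0.75 or 26.9-fold (adjusted p = 0.00115). Its Ctnnb1 change passed narrowly (adjusted p = 0.0387) and did not hold when any of Ctnnb1 tumours 1, 2, 3 or 7 or of phenobarbital controls 4 or 5 was left out (adjusted p up to 0.175).

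Cyp27a1, the sterol hydroxylase of the other bile acid pathway, was at 11.98, 12.02 and 11.29 in phenobarbital controls and between 12.04 and 12.71 (median 12.50) in Ctnnb1 tumours. The untreated controls read 12.08, 12.04 and 12.06 and the Ha-ras tumours 9.19, 9.41 and 10.17. The fall in Ha-ras tumours (−2.47 ± 0.23) was the larger part of its interaction of 3.19 ± 0.31 (adjusted p = 1.45e-05). The rise in Ctnnb1 tumours (0.72 ± 0.20, adjusted p = 0.0278) was lost without phenobarbital control 6 (0.48, adjusted p = 0.184). Csad, which makes a precursor of the taurine used to conjugate bile acids, changed by 1.58 ± 0.33 and −2.08 ± 0.39, an interaction of 3.66 ± 0.52 (adjusted p = 0.000449). The rise of Csad was also lost without phenobarbital control 6 (1.23, adjusted p = 0.0505).

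Lect2, a protein secreted by hepatocytes, was at 11.22, 12.00 and 12.38 in phenobarbital controls and between 12.82 and 13.78 (median 13.54) in Ctnnb1 tumours. In untreated controls it was at 11.75, 11.48 and 11.97, and in Ha-ras tumours at 10.32, 9.36 and 10.01. No tumour overlapped its controls, while the controls of both treatments overlapped. The changes of 1.59 ± 0.25 and −1.83 ± 0.29 gave an interaction of 3.42 ± 0.39 (adjusted p = 6.07e-05), and the gene remained in the opposite class without any 1 array. Csrp2, a LIM domain protein, did so too, with 1.43 ± 0.29, −1.93 ± 0.34 and an interaction of 3.36 ± 0.45 (adjusted p = 0.000295). Its Ctnnb1 tumours reached down to 9.59, into the range of their controls (9.45 to 9.66), through tumour 6, against a median of 11.21.

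Avpr1a, the vasopressin receptor of hepatocytes, was at 7.16, 7.72 and 7.37 in phenobarbital controls and between 8.26 and 10.16 (median 9.80) in Ctnnb1 tumours. Untreated controls read 6.81, 8.20 and 6.59 and Ha-ras tumours 5.90, 5.46 and 5.47. The interaction was 3.78 ± 0.58 (adjusted p = 0.000957). Its fall in Ha-ras tumours (−1.59 ± 0.44) was lost without Ha-ras tumours 2 or 3 or untreated control 2 (adjusted p up to 0.126). Kcnk1, a potassium channel, changed by 2.01 ± 0.32 and −1.39 ± 0.38, and its fall was lost without Ha-ras tumours 2 or 3 or untreated controls 1 or 3 (adjusted p up to 0.089). Fam25c, at 7.43, 7.37 and 7.38 in Ha-ras tumours against 11.06, 9.77 and 9.95 in untreated controls, had an interaction of 4.38 ± 0.58 (adjusted p = 0.000294). Its rise in Ctnnb1 tumours (1.51 ± 0.38) was lost without phenobarbital control 4 (1.20, adjusted p = 0.0862).

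Smaller opposite changes were seen in Gclm and Ugdh. Gclm, the modifier subunit of the enzyme that starts glutathione synthesis, changed by 0.82 ± 0.15 and −0.65 ± 0.17, and Ugdh, which makes UDP-glucuronic acid, by 0.65 ± 0.13 and −0.60 ± 0.15. Their interactions were 1.48 ± 0.23 (adjusted p = 0.000984) and 1.25 ± 0.20 (adjusted p = 0.00124). Both falls in Ha-ras tumours were lost without untreated control 1 (adjusted p = 0.0733 and 0.0691), that of Gclm also without untreated control 2 or Ha-ras tumour 1, and that of Ugdh without Ha-ras tumours 2 or 3 (adjusted p up to 0.0906). They were the 2 of 13 measured NRF2 target genes that passed the interaction, against 5.43% of all genes. Without Ha-ras tumour 1 that count was 4.

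Among the 45 genes down in Ctnnb1 and up in Ha-ras tumours, the largest interaction of all 988 genes was that of Rdh16f2, a member of the retinol dehydrogenase family. It read 9.55, 11.06 and 10.30 in phenobarbital controls and 5.62 to 7.88 (median 6.57) in Ctnnb1 tumours, against 9.85, 9.88 and 9.42 in untreated controls and 12.45, 12.79 and 12.20 in Ha-ras tumours. The controls of both treatments overlapped, and the tumours lay apart from them on both sides. It fell by 3.72 ± 0.39 in Ctnnb1 tumours and rose by 2.76 ± 0.46 in Ha-ras tumours, a difference of 89.1-fold (interaction −6.48 ± 0.60, adjusted p = 9.14e-06). Wfdc15b, of the whey acidic protein family, read 6.36, 6.42 and 5.73 in phenobarbital controls, 4.03 to 5.40 (median 4.57) in Ctnnb1 tumours, 7.69, 6.96 and 7.69 in untreated controls and 11.51, 12.02 and 11.82 in Ha-ras tumours. Here the rise of 4.33 ± 0.31 in Ha-ras tumours outweighed the fall of 1.57 ± 0.26 on the log2 scale in Ctnnb1 tumours (interaction −5.91 ± 0.40, adjusted p = 8.34e-07).

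Lepr, the leptin receptor, was at 7.24, 5.63 and 6.52 in phenobarbital controls and between 4.04 and 5.43 (median 4.68) in Ctnnb1 tumours, and at 5.28, 4.91 and 5.67 in untreated controls and 8.63, 7.63 and 8.63 in Ha-ras tumours. Its changes were −1.77 ± 0.33 and 3.01 ± 0.39 (interaction −4.78 ± 0.51, adjusted p = 3.88e-05). Rasgrp2, an exchange factor for small GTPases of the Ras and Rap family, changed by −1.19 ± 0.22 and 3.22 ± 0.26 (interaction −4.42 ± 0.34, adjusted p = 1.91e-06). Its Ha-ras tumours read 10.20, 10.51 and 9.71 against 6.91, 7.02 and 6.82 in untreated controls. Tent5a, a poly(A) polymerase, changed by −1.56 ± 0.34 and 2.31 ± 0.41 (interaction −3.87 ± 0.53, adjusted p = 0.00036), with Ctnnb1 tumour 6 at 8.23, within the range of its controls (8.04 to 8.52). Rdh16f2, Wfdc15b, Lepr, Rasgrp2 and Tent5a stayed in the opposite class without any 1 array.

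The class was less firm for others, since one of its changes passed narrowly. Aldh1b1, a mitochondrial aldehyde dehydrogenase, fell by 3.61 ± 0.53 on the log2 scale in Ctnnb1 tumours, but its rise in Ha-ras tumours (1.99 ± 0.63, adjusted p = 0.0473) held in 4 of 16 runs that left out 1 array, those without Ctnnb1 tumours 2, 3, 6 or 7. Scn8a, a sodium channel, rose by 4.57 ± 0.30 in Ha-ras tumours, where it read 9.51, 9.23 and 8.88 against 4.54, 4.44 and 4.94 in untreated controls. Its fall in Ctnnb1 tumours (−0.87 ± 0.25, adjusted p = 0.0352) lay at the dim end of the scale (median 4.0) and held in 8 of 16 runs. Pnpla5, a lipase of the patatin family, rose by 3.68 ± 0.23 in Ha-ras tumours, and its fall in Ctnnb1 tumours (−0.63 ± 0.19, adjusted p = 0.0447) held in 6 of 16. The arrays whose omission ended the Scn8a call were Ctnnb1 tumours 1, 3, 4, 5 and 6 and phenobarbital controls 4, 5 and 6 (adjusted p up to 0.131). For Pnpla5 they were Ctnnb1 tumours 1 to 5, phenobarbital controls 4, 5 and 6, Ha-ras tumour 3 and untreated control 3 (adjusted p up to 0.155). The interaction of each of these genes of the opposite class passed in all 16 runs. Of the 83 opposite genes, 18 kept both calls and the interaction in every run, and all 83 kept opposite signs and the interaction. Each run shares all but 1 array with the fit that called the class, so these counts are no separate evidence.

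**Figure D2:**
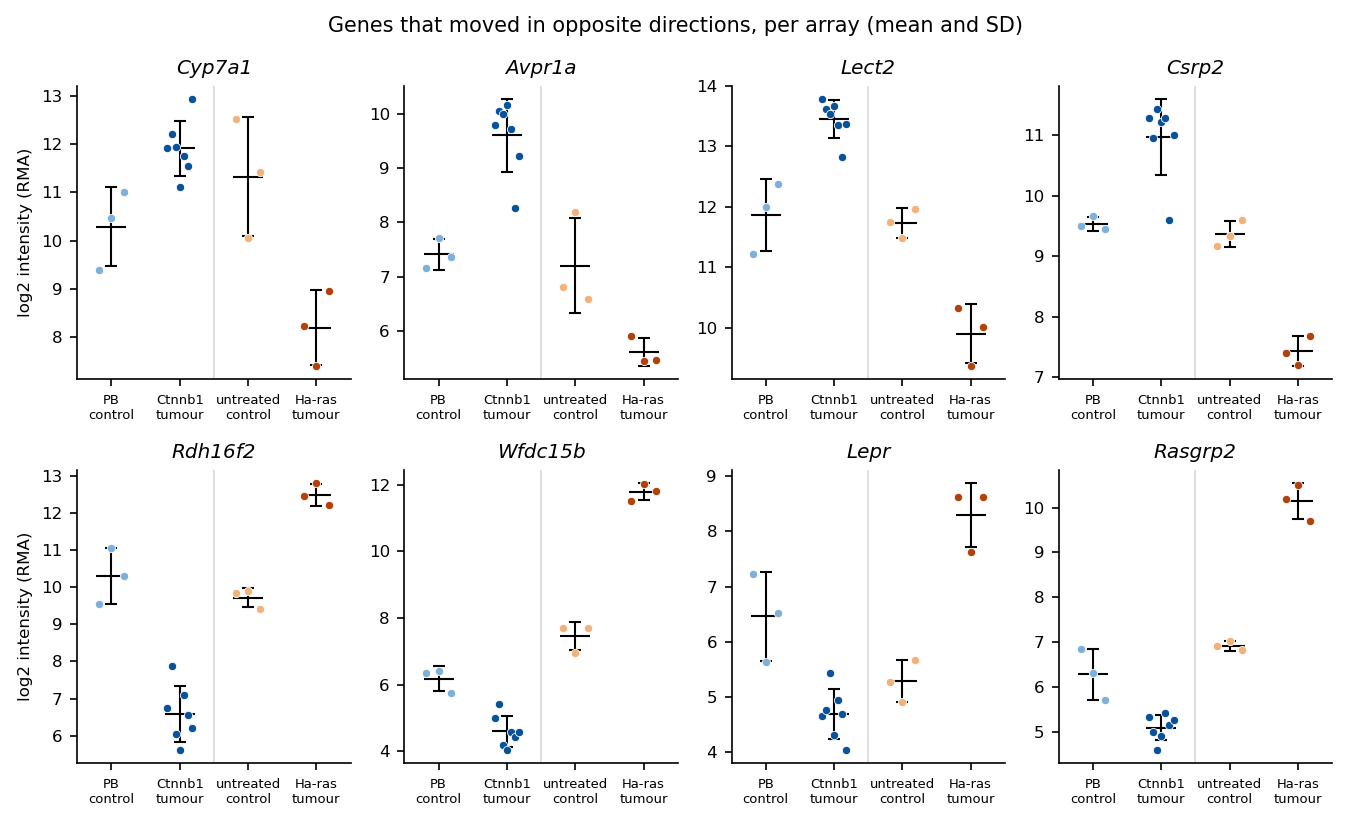
Log2 RMA intensity (y axis) of 8 genes that moved in opposite directions, 1 point per array in the 4 groups on the x axis (PB, phenobarbital), with the group mean and SD. Cyp7a1, Avpr1a, Lect2 and Csrp2 were higher in Ctnnb1 and lower in Ha-ras tumours than in their controls, and Rdh16f2, Wfdc15b, Lepr and Rasgrp2 the reverse.

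The promoters of the genes of the opposite class were read for motifs of AP-1, ETS, TCF/LEF and HNF4 factors. For 31 of the 38 genes up in Ctnnb1 tumours and 37 of the 45 down, RefSeq (GRCm38.p6, the C57BL/6J reference, not C3H/HeJ) gave the 250 bases before the gene start. The promoters of the genes with the largest interaction in each direction that had an entry are shown 5′ to 3′, in lower case. The capitals mark the only match among the motifs searched, TGACTCA, an AP-1 motif. Fam25c lies on the minus strand at chr14:34355394-34355643 and Rdh16f2 on the plus strand at chr10:127866226-127866475.
Fam25c: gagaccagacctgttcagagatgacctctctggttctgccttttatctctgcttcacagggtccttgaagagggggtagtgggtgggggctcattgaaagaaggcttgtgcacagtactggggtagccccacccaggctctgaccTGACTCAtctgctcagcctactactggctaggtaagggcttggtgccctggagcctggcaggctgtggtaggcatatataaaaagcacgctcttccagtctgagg
Rdh16f2: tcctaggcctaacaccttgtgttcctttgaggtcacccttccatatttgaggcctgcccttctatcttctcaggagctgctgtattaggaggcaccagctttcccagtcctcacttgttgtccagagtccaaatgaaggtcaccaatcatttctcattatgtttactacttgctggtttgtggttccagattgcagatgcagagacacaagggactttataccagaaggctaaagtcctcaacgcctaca
Searched on both strands, TGANTCA (AP-1, the motif of Fos and Jun proteins) was found in 5 of the 31 promoters of genes up in Ctnnb1 tumours (16.1%) and 0 of the 37 of genes down, against 6.87% of all 27025 promoters. CCGGAAG (ETS, the family of ERK-responsive factors) was in 1 of 31 and in 3 of 37 (8.11%), against 7.05% of all. CTTTGAT (TCF/LEF) was in 1 of 31 (3.23%) and 0 of 37, against 3.23% of all. CAAAGTC (HNF4) was in 0 of 31 and 0 of 37, against 3.8% of all. Matches of different motifs can share letters (CTTTGAT with TGANTCA, or with CAAAGTC on the other strand), and a match is a description of the sequence, not a binding site.

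Among the 88 genes lower in Ctnnb1 tumours only, the 3 largest interactions were those of Hal, Gldc and Aspg. Hal, the histidine ammonia-lyase, read 11.62, 11.43 and 11.03 in phenobarbital controls and 5.71 to 7.93 (median 7.51) in Ctnnb1 tumours. In untreated controls it read 10.85, 11.49 and 10.75, and in Ha-ras tumours 10.70, 11.22 and 11.41. The Ctnnb1 tumours lay apart from all other arrays, while Ha-ras tumours overlapped their controls. Hal fell by 4.35 ± 0.43 on the log2 scale in Ctnnb1 tumours, its change in Ha-ras tumours was 0.08 with a 95% interval from −1.0 to 1.17, and the interaction was −4.43 ± 0.67 (adjusted p = 0.000808).

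Aspg, an asparaginase, had the same pattern: 9.68, 9.32 and 9.04 in phenobarbital controls, 4.13 to 6.70 (median 5.71) in Ctnnb1 tumours, 9.25, 9.09 and 9.25 in untreated controls and 8.62, 8.93 and 9.30 in Ha-ras tumours. Its interaction was −3.48 ± 0.66 (adjusted p = 0.00466), and the interval of its Ha-ras change ran from −1.32 to 0.82. Gldc, of the glycine cleavage system, changed by −3.53 ± 0.53 and 0.32 ± 0.63 (interaction −3.85 ± 0.83, adjusted p = 0.0112), and Mn1, a transcriptional coregulator, by −2.59 ± 0.29 and 0.10 ± 0.34 (interaction −2.69 ± 0.45, adjusted p = 0.00181). Hsd17b13, an enzyme of lipid droplets, changed by −1.63 ± 0.23 and 0.47 ± 0.27 (interaction −2.10 ± 0.35, adjusted p = 0.00177). It lies at the edge of the class, since its Ha-ras change exceeded 0.5 without Ha-ras tumour 2 (0.60) or untreated control 1 (0.53), and the other probe set of Hsd17b13 moved in opposite directions (−1.315 in Ctnnb1 tumours, adjusted p = 0.00201, and 1.41 in Ha-ras tumours, adjusted p = 0.00238). The Ha-ras change of Gldc exceeded the limit of 0.5 without Ha-ras tumour 1 (0.58) or untreated control 2 (0.69).

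Of 27 measured genes of amino acid breakdown, 4 had a negative and 2 a positive interaction, against 3.29% negative and 2.14% positive over all genes. The negative ones were Hal, Gldc, Amdhd1 and Uroc1, the last a urocanate hydratase and Amdhd1 the next enzyme of histidine breakdown. Amdhd1 (interaction −2.51 ± 0.58, adjusted p = 0.0173) was lost without Ha-ras tumour 2 or untreated control 1 (adjusted p = 0.0502 and 0.0563), and Uroc1 (−2.41 ± 0.66, adjusted p = 0.0439) in 11 of 16 runs (adjusted p up to 0.0965), all but those without Ctnnb1 tumours 2, 3, 5, 6 or 7. The positive ones were Prodh, described below, and Hgd, of tyrosine breakdown, which fell by 1.25 ± 0.18 on the log2 scale in Ha-ras tumours and changed by −0.21 ± 0.15 in Ctnnb1 tumours (interaction 1.04 ± 0.23, adjusted p = 0.0139). The call of Hgd ended with 3 Ctnnb1 tumours in the fit, numbers 4 to 6 here and below (adjusted p = 0.0708). The other probe set of Hgd did not pass (0.57, adjusted p = 0.633). In both tumour types enzymes of this group fell, 14 of 27 in Ctnnb1 and 10 in Ha-ras tumours, and none rose. The list had a median change of −0.83 and −0.62 and a median interaction of −0.16, which turned to 0.15 without Ha-ras tumour 3 and was otherwise between −0.30 and −0.06. The positive count was 4 without Ha-ras tumour 3, and the negative count 2 without Ha-ras tumour 2 or untreated control 1.

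Among the 81 genes higher in Ctnnb1 tumours only, the largest interaction was that of Krt4. Krt4, a keratin of squamous epithelium, read 5.57, 6.56 and 6.39 in phenobarbital controls and 7.32 to 10.00 (median 9.46) in Ctnnb1 tumours, and 6.24, 5.75 and 5.96 in untreated controls against 5.74, 5.61 and 5.59 in Ha-ras tumours. Its interaction was 3.29 ± 0.67 (adjusted p = 0.00785), with an interval of −1.42 to 0.76 for the Ha-ras change. Adamtsl4, an extracellular matrix protein, read 5.80, 6.52 and 6.86 in phenobarbital controls, 8.11 to 9.87 (median 8.95) in Ctnnb1 tumours, 6.21, 5.78 and 5.52 in untreated controls and 6.25, 5.50 and 5.88 in Ha-ras tumours. It rose by 2.60 ± 0.31 in Ctnnb1 tumours, against 0.04 ± 0.36 in Ha-ras tumours (interaction 2.57 ± 0.48, adjusted p = 0.00409). For both genes every Ctnnb1 tumour was above every other array.

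Dyrk3, a protein kinase, rose by 2.00 ± 0.20 in Ctnnb1 tumours, against −0.04 ± 0.24 in Ha-ras tumours (interaction 2.04 ± 0.31, adjusted p = 0.000836). Ccn4, a secreted protein first described as induced by Wnt1, had an interaction of 2.55 ± 0.58 (adjusted p = 0.0151), and Tnfrsf19, a receptor on the Wnt list, of 1.97 ± 0.44 (adjusted p = 0.0148). The calls of Ccn4 and Tnfrsf19 ended with only Ctnnb1 tumours 4 to 6 in the fit (adjusted p = 0.096 and 0.0807). Of all Ctnnb1 tumours, number 6 was the lowest for both genes (7.21 and 8.37). Arg2, the mitochondrial arginase, read 5.69 to 9.20 (median 8.0) in Ctnnb1 tumours and 3.68 to 4.78 in all other arrays. Its interaction of 3.19 ± 0.81 (adjusted p = 0.0301) was lost in 8 of 16 runs, those without any 1 Ha-ras tumour, any 1 untreated control or phenobarbital controls 4 or 5 (adjusted p up to 0.0731). It was the 1 of 11 urea cycle genes that passed the interaction, against 5.43% of all genes. Of the 11, 6 fell and 2 rose in Ctnnb1 tumours (5.97% and 6.07% over all genes), and 2 fell in Ha-ras tumours (6.33%).

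Among the 185 genes lower in Ha-ras tumours only, the 8 largest interactions included those of Prodh, Cyp4a12a, Aox3, Slco1b2, Pon1 and Cyp2c50. Slco1b2, an organic anion carrier of the hepatocyte surface, read 12.92, 12.84 and 12.96 in untreated controls and 9.41, 9.64 and 10.59 in Ha-ras tumours. In phenobarbital controls it read 12.36, 12.75 and 13.20, and in Ctnnb1 tumours 12.54 to 13.24 (median 13.17). The Ha-ras tumours lay below all other arrays, which overlapped. It fell by 3.03 ± 0.28 on the log2 scale, its change in Ctnnb1 tumours was 0.18 (95% interval −0.33 to 0.69), and the interaction was 3.21 ± 0.37 (adjusted p = 7.6e-05). Another, dimmer probe set of Slco1b2 moved in opposite directions (2.63 in Ctnnb1 tumours, adjusted p = 0.0479, and −3.24 in Ha-ras tumours, adjusted p = 0.0383).

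Cyp4a12a, a male-biased fatty acid hydroxylase, read 12.24, 12.28 and 12.39 in untreated controls and 7.35, 8.57 and 9.61 in Ha-ras tumours, a fall of 3.80 ± 0.39 on the log2 scale. Phenobarbital controls read 12.05, 11.79 and 11.20 and Ctnnb1 tumours 11.41 to 12.19 (median 11.51), a change of −0.04 ± 0.33. The interaction was 3.75 ± 0.51 (adjusted p = 0.000329). Prodh, the proline dehydrogenase, fell by 3.57 ± 0.54 on the log2 scale in Ha-ras tumours, against 0.23 ± 0.45 in Ctnnb1 tumours (interaction 3.80 ± 0.70, adjusted p = 0.00398). Cyp2c50, a cytochrome P450, fell by 2.99 ± 0.24, against −0.08 ± 0.21 (interaction 2.91 ± 0.32, adjusted p = 4.85e-05). Aox3, an aldehyde oxidase, and Pon1, a paraoxonase, had interactions of 3.53 ± 0.54 and 3.16 ± 0.44 (adjusted p = 0.000914 and 0.000448). The Ctnnb1 change of Pon1 was 0.41 ± 0.29 and that of Aox3 0.49 ± 0.35. Each exceeded 0.5 without phenobarbital controls 4 or 5, and Aox3 also without Ctnnb1 tumours 2, 6 or 7, so that these genes lie at the edge of the class.

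Among the 351 genes higher in Ha-ras tumours only, several went from the dim end of the scale to a high level. Elapor1, a membrane protein of endosomes and lysosomes, read 5.40, 5.20 and 6.10 in untreated controls and 10.75, 10.75 and 10.88 in Ha-ras tumours. Phenobarbital controls read 4.89, 4.51 and 4.60 and Ctnnb1 tumours 4.02 to 5.33 (median 4.62). The rise of 5.22 ± 0.28 stood against a Ctnnb1 change of 0.05 (95% interval −0.46 to 0.56), an interaction of −5.18 ± 0.37 (adjusted p = 8.34e-07), with both phenobarbital groups at the dim end of the scale. Cidea, a protein of lipid droplets, read 4.14, 4.23 and 4.31 in untreated controls and 9.05, 9.65 and 8.14 in Ha-ras tumours, while phenobarbital controls (4.13, 3.98 and 4.28) and Ctnnb1 tumours (3.82 to 4.95, median 4.30) overlapped. Its interaction was −4.55 ± 0.40 (adjusted p = 5.02e-06).

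Other rises in Ha-ras tumours were in a steroid enzyme, a motor protein and a matrix protein. Akr1c18, a hydroxysteroid dehydrogenase, rose by 5.04 ± 0.33, Kif5c, a kinesin heavy chain, by 4.89 ± 0.37 and Ipcef1 by 4.54 ± 0.29. Their interactions were −4.57 ± 0.44 (adjusted p = 1.38e-05), −4.44 ± 0.49 (adjusted p = 4.92e-05) and −4.16 ± 0.38 (adjusted p = 6.88e-06). Itih5, which binds hyaluronan in the matrix, rose by 3.60 ± 0.46 (interaction −4.06 ± 0.60, adjusted p = 0.00067) and Golm2 by 3.88 ± 0.48 (interaction −3.94 ± 0.63, adjusted p = 0.00128). Ctnnb1 changes of these genes lay between −0.45 and 0.48. In Akr1c18, Kif5c and Itih5 they exceeded 0.5 in size in 3, 4 and 4 of 16 runs, among them those without phenobarbital control 6 for Akr1c18 (0.68) and Kif5c (0.87) and without phenobarbital control 5 for Itih5 (−0.77). Bex1 had an interaction of −4.93 ± 1.32 (adjusted p = 0.0391) that held in 6 of 16 runs only. In Bex1 phenobarbital control 6 read 8.69, against 5.79 and 4.63 in the other two, and without it the interaction was −3.77 (adjusted p = 0.0907).

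**Figure D3:**
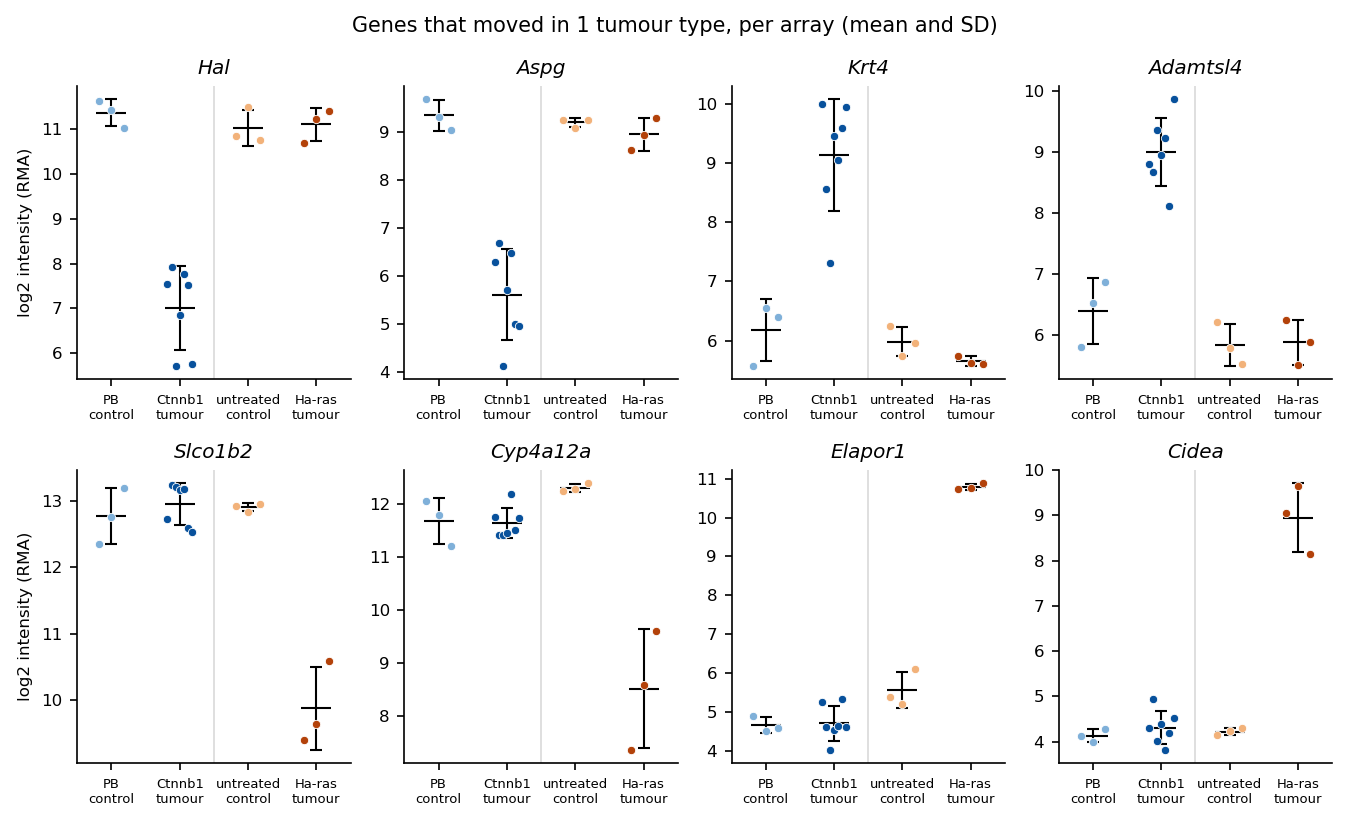
Log2 RMA intensity (y axis) of 8 genes that moved in 1 tumour type only, 1 point per array in the 4 groups on the x axis, with the group mean and SD. Hal, Aspg, Krt4 and Adamtsl4 differ from their controls in Ctnnb1 tumours, and Slco1b2, Cyp4a12a, Elapor1 and Cidea in Ha-ras tumours, with the other 3 groups close together.

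Ctnnb1 itself fell into the Ha-ras class by a small margin. Its transcript read 12.25, 12.36 and 12.26 in untreated controls, 12.88, 12.99 and 12.77 in Ha-ras tumours, 12.28, 12.34 and 12.53 in phenobarbital controls and 12.20 to 12.54 (median 12.46) in Ctnnb1 tumours. The interaction was −0.55 ± 0.14 (adjusted p = 0.0273) and was lost in 5 of 16 runs, those without Ha-ras tumours 1 or 2, phenobarbital control 6 or untreated controls 1 or 3 (adjusted p up to 0.0805). Its other probe sets gave −0.20 and 0.31 and did not pass. A transcript level gives no information on the mutation.

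Of 16 measured Wnt and beta-catenin target genes, 5 had a positive interaction and none a negative one, against 2.14% positive over all genes. In Ctnnb1 tumours 8 rose and none fell, and in Ha-ras tumours 1 rose and 3 fell. The median over the list was 1.08 for the Ctnnb1 change, −0.51 for the Ha-ras change and 1.89 for the interaction. Ctnnb1 tumour 6 had the lowest mean over the list, 6.72 against 7.47 to 8.28 in the other 6, and without it 8 of the 16 passed.

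The 5 were Lgr5, Tbx3, Tnfrsf19, Notum and Znrf3. Lgr5, a receptor for R-spondins, read 4.81, 6.57 and 5.90 in phenobarbital controls and 6.22 to 9.38 (median 8.83) in Ctnnb1 tumours, and 6.05, 6.17 and 6.07 in untreated controls against 4.46, 4.12 and 4.87 in Ha-ras tumours. It rose by 2.57 ± 0.58 in Ctnnb1 tumours, its lower level in Ha-ras tumours did not pass (−1.61 ± 0.69, adjusted p = 0.146), and the interaction was 4.19 ± 0.90 (adjusted p = 0.0112). Tbx3, a T-box transcription factor, moved in opposite directions (1.0 ± 0.28 and −2.14 ± 0.33, interaction 3.14 ± 0.43, adjusted p = 0.000344). Its Ctnnb1 rise was lost without phenobarbital controls 4 or 5 (adjusted p = 0.11 and 0.10) or Ctnnb1 tumour 1 (adjusted p = 0.0504).

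Znrf3, a ubiquitin ligase that removes Wnt receptors, also moved in opposite directions (0.88 ± 0.23 and −0.96 ± 0.27, interaction 1.84 ± 0.35, adjusted p = 0.00468). One of its changes was lost in 6 of 16 runs, those without phenobarbital controls 4 or 6, Ha-ras tumours 1 or 2 or untreated controls 2 or 3 (adjusted p up to 0.0851). Notum, an extracellular inhibitor of Wnt proteins, passed the interaction (1.91 ± 0.46, adjusted p = 0.022) without passing in either tumour type, and lost it without Ha-ras tumour 1, phenobarbital control 4 or untreated control 3 (adjusted p = 0.0539, 0.0547 and 0.0663) and with 3 Ctnnb1 tumours in the fit (0.117). Axin2, the feedback inhibitor of the pathway, missed the threshold (1.98 ± 0.60, adjusted p = 0.0679). Without Ctnnb1 tumour 6 its interaction was 2.27 (adjusted p = 0.000579).

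Genes downstream of ERK moved the other way. Of 18 measured feedback inhibitors and ERK-driven factors, 10 had a negative interaction and none a positive one, against 3.29% negative over all genes. In Ha-ras tumours 11 rose and none fell, and in Ctnnb1 tumours 1 rose and 1 fell. The median change was 0.01 in Ctnnb1 tumours and 1.21 in Ha-ras tumours, and the median interaction −1.38. Leaving out dim genes reduced the count to 6, but list members below the median level were then not tested.

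Spry2, an inhibitor of receptor tyrosine kinase signalling, read 5.20, 4.90 and 5.59 in untreated controls and 7.77, 7.42 and 7.84 in Ha-ras tumours, and 4.91, 4.93 and 6.08 in phenobarbital controls against 4.38 to 4.90 (median 4.49) in Ctnnb1 tumours. It rose by 2.45 ± 0.27 in Ha-ras tumours, while its lower level in Ctnnb1 tumours did not pass (−0.70 ± 0.23, adjusted p = 0.0564). The interaction was −3.15 ± 0.35 (adjusted p = 5.98e-05). Its relative Spry4 had −0.80 ± 0.26 and 1.25 ± 0.30 (interaction −2.05 ± 0.40, adjusted p = 0.00551). Il1rn had an interaction of −3.02 ± 0.54 (adjusted p = 0.00296) and Ier3, an early response gene, of −2.11 ± 0.43 (adjusted p = 0.00726). Il1rn is on the list but encodes the interleukin 1 receptor antagonist, neither an ERK inhibitor nor a transcription factor.

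Dusp6, the phosphatase that inactivates ERK, shows how the controls enter the interaction. It read 8.98, 8.91 and 9.11 in untreated controls and 11.92, 11.41 and 11.37 in Ha-ras tumours, and 10.44, 10.37 and 11.69 in phenobarbital controls against 10.35 to 11.38 (median 10.91) in Ctnnb1 tumours. The tumour types overlapped, and the phenobarbital controls lay above the untreated ones. Its interaction of −2.49 ± 0.42 (adjusted p = 0.00201) thus came mostly from the gap between the controls. The Ctnnb1 change was 0.08 ± 0.27 and exceeded the limit of the class without phenobarbital control 6 (0.51).

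Of 14 immediate early genes, 5 had a negative interaction and none a positive one, against 3.29% negative over all genes. All 5 rose in Ha-ras tumours, where 8 of the list rose and none fell. Fos, a subunit of the AP-1 transcription factor, read 5.63, 6.07 and 5.67 in untreated controls and 8.22, 8.31 and 7.99 in Ha-ras tumours, and 6.38, 5.88 and 6.24 in phenobarbital controls against 5.88 to 6.79 (median 6.29) in Ctnnb1 tumours. It rose by 2.38 ± 0.21, against 0.13 ± 0.17 in Ctnnb1 tumours (interaction −2.26 ± 0.27, adjusted p = 0.000103). Junb, another AP-1 subunit, had an interaction of −1.50 ± 0.30 (adjusted p = 0.0076), Ier2 of −1.11 ± 0.18 (adjusted p = 0.00163) and Btg2, a regulator of proliferation, of −2.70 ± 0.40 (adjusted p = 0.000623). Egr1, a zinc finger factor, rose in both tumour types, by 0.72 ± 0.22 and 3.88 ± 0.26 (interaction −3.16 ± 0.34, adjusted p = 4.09e-05), and its small rise in Ctnnb1 tumours was lost in 10 of 16 runs.

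**Figure D4:**
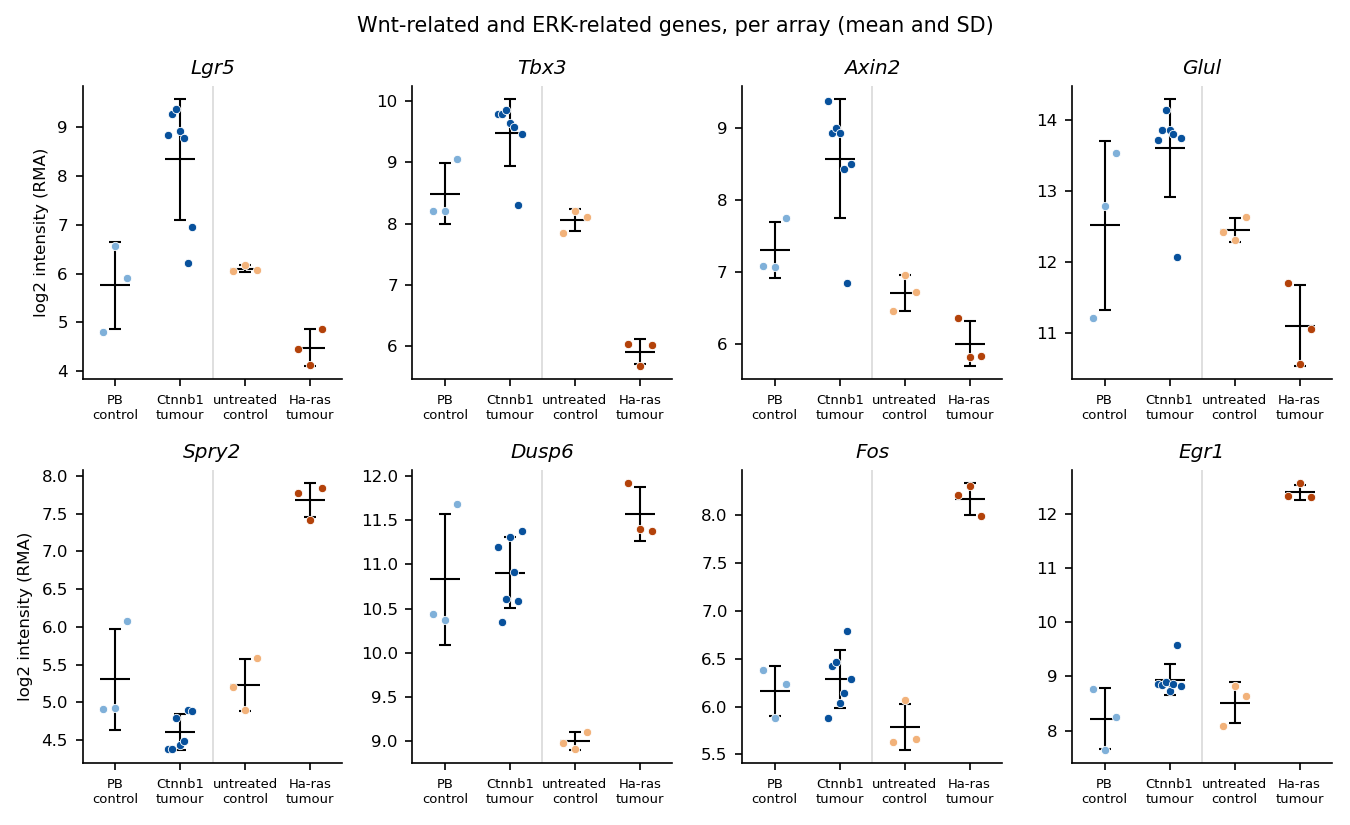
Log2 RMA intensity (y axis) of 8 genes of the Wnt and ERK pathways, 1 point per array in the 4 groups on the x axis, with the group mean and SD. Lgr5, Tbx3, Axin2 and Glul are higher in most Ctnnb1 tumours and lower in Ha-ras tumours than in their controls, with Ctnnb1 tumour 6 the lowest of its group, and Spry2, Dusp6, Fos and Egr1 are higher in Ha-ras tumours than in untreated controls.

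Of 19 measured pericentral genes, 15 had a positive interaction and none a negative one, against 2.14% positive over all genes. The list had medians of 0.61 for the Ctnnb1 change, −1.83 for the Ha-ras change and 2.69 for the interaction. Of the 19, 14 fell and none rose in Ha-ras tumours, and 5 rose and none fell in Ctnnb1 tumours. Without Ctnnb1 tumour 6, whose mean over the list was 12.0 against 12.74 to 13.16 in the other 6, all 19 passed. The list shares Cyp7a1, Cyp27a1, Lect2, Slco1b2 and Pon1 with the genes described above.

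Cyp1a2, a pericentral P450, read 12.53, 12.39 and 12.71 in untreated controls and 10.24, 9.22 and 10.33 in Ha-ras tumours, and 12.87, 13.10 and 13.93 in phenobarbital controls against 12.64 to 14.33 (median 14.13) in Ctnnb1 tumours. It fell by 2.62 ± 0.39 on the log2 scale in Ha-ras tumours (interaction 3.23 ± 0.52, adjusted p = 0.00127). Cyp2e1, a P450 that oxidises ethanol, fell by 1.41 ± 0.23 in Ha-ras tumours and changed by 0.10 ± 0.19 in Ctnnb1 tumours (interaction 1.51 ± 0.30, adjusted p = 0.00648). That call ended with 3 Ctnnb1 tumours in the fit (adjusted p = 0.0508). Glul, the glutamine synthetase of the innermost pericentral cells, missed the threshold (2.43 ± 0.69, adjusted p = 0.0518), with Ctnnb1 tumours between 12.07 and 14.14 (median 13.80) and phenobarbital controls at 11.21, 12.79 and 13.54. Without Ctnnb1 tumour 6 it passed (2.68, adjusted p = 0.00769), as did its other probe set (4.30, adjusted p = 0.0306).

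Of 19 measured periportal genes, 6 had a negative interaction and none a positive one, against 3.29% negative over all genes. In Ctnnb1 tumours 16 fell and none rose, and in Ha-ras tumours 2 fell and 2 rose. The median change was −2.17 in Ctnnb1 tumours and −0.15 in Ha-ras tumours, and the median interaction −1.58. The 6 were Aldh1b1, Cdh1, Hal, Gldc, Pigr and Hsd17b13. When phenobarbital control 6 was omitted along with Ctnnb1 tumours 6 and 7, 12 passed.

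Cdh1, the epithelial cadherin, rose in Ha-ras tumours (3.38 ± 0.72), where it read 11.08, 11.35 and 10.90 against 6.34, 8.75 and 8.10 in untreated controls. In Ctnnb1 tumours it read 5.70 to 9.38 (median 8.01) against 9.94, 8.95 and 9.93, a lower level that did not pass (−1.67 ± 0.61, adjusted p = 0.086). The interaction was −5.05 ± 0.94 (adjusted p = 0.00412). Pigr, the carrier of polymeric immunoglobulins, fell by 2.67 ± 0.42 on the log2 scale in Ctnnb1 tumours, but its interaction (−2.46 ± 0.66, adjusted p = 0.0384) held in 4 of 16 runs (adjusted p up to 0.0885). Uox, the urate oxidase, and Arg1, the arginase of hepatocytes, both of this list and named after their values were seen, fell in Ctnnb1 tumours and missed the interaction (adjusted p = 0.0507 and 0.153).

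Bile acid genes had 7 positive interactions among 18 (2.14% over all genes) and no negative one, with a median of 1.28. Most of the list fell in Ha-ras tumours (14 fell, none rose), and in Ctnnb1 tumours 4 rose and 2 fell. Besides Cyp7a1 and Cyp27a1, Cyp8b1, the hydroxylase that makes cholic acid, fell in both, by 1.20 ± 0.36 and 3.57 ± 0.42 on the log2 scale. Its fall in Ctnnb1 tumours was lost without any 1 of Ctnnb1 tumours 1 to 5 or phenobarbital controls 4, 5 or 6 (adjusted p up to 0.124). The interaction of Cyp8b1 (2.36 ± 0.55, adjusted p = 0.0184) was lost without phenobarbital control 6 or untreated control 2 (adjusted p = 0.0506 and 0.0566).

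Fatty acid and triglyceride synthesis had 6 negative interactions among 21 genes (3.29% over all genes) and no positive one (median −0.74), and 7 of the list rose in Ha-ras tumours. Pnpla3, a lipase of lipid droplets, read 5.85, 5.37 and 5.83 in untreated controls and 8.32, 7.31 and 8.26 in Ha-ras tumours, and it changed by −0.09 ± 0.25 in Ctnnb1 tumours (interaction −2.37 ± 0.39, adjusted p = 0.00159). Fads2, a fatty acid desaturase, rose by 1.36 ± 0.22, against 0.11 ± 0.18 (interaction −1.25 ± 0.28, adjusted p = 0.0151). The count of 6 was 3 without Ha-ras tumours 1 or 2 or phenobarbital control 4 and 2 without untreated control 3. Adding the Gapdh difference between 3′ and 5′ ends to the fit gave 3, and 3 Ctnnb1 tumours in the fit gave 2, and both of these settings ended the call of Fads2 (adjusted p = 0.0532 and 0.0591).

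In cholesterol synthesis, 8 of 19 genes rose in Ha-ras tumours and 2 in Ctnnb1 tumours, yet 1 passed the interaction, Dhcr7, the last enzyme of the pathway (−1.53 ± 0.39, adjusted p = 0.0287). It was lost without Ha-ras tumour 2, phenobarbital controls 4 or 6 or untreated control 3 (adjusted p up to 0.0842), and its tumour types overlapped. No gene passed the interaction in limma among 18 of fatty acid oxidation, 14 of glycolysis or 10 of gluconeogenesis. In the last of these lists 7 fell in Ctnnb1 tumours and 1 in Ha-ras tumours, with a median interaction of −0.48.

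Some liver genes are expressed at different levels in males and females. Of 15 male-biased genes, 11 fell in Ha-ras and 6 in Ctnnb1 tumours, and 4 had a positive interaction (2.14% over all genes). The median was 1.32, and 0.805 without Ha-ras tumour 1. These were Cyp4a12a, C6, a complement component, Ugt2b1, a glucuronosyltransferase, and Cyp2d9, a P450. Ugt2b1 fell by 2.21 ± 0.25 on the log2 scale in Ha-ras tumours, against −0.22 ± 0.21 (interaction 2.00 ± 0.33, adjusted p = 0.00177). The interactions of C6 and Cyp2d9 were 2.14 ± 0.48 (adjusted p = 0.0139) and 1.32 ± 0.34 (adjusted p = 0.0305). Cyp2d9 was lost without phenobarbital controls 4 or 5 or any 1 untreated control (adjusted p up to 0.0798), and both were lost with 3 Ctnnb1 tumours in the fit (adjusted p = 0.0855 and 0.0598).

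Of 11 female-biased genes, 3 had a negative interaction (3.29% over all genes), Cyp2b9, Abcd2 and Cyp17a1. The median was −0.72, and it was −0.29 without phenobarbital control 5 and −1.16 without phenobarbital control 4. Cyp17a1, of steroid synthesis, read 5.61, 5.21 and 5.26 in untreated controls and 8.62, 8.83 and 6.81 in Ha-ras tumours, against 4.59 to 5.73 (median 4.96) in Ctnnb1 tumours and 4.78, 5.96 and 5.21 in their controls. Its interaction was −3.07 ± 0.56 (adjusted p = 0.00364). Abcd2, a peroxisomal transporter, rose by 3.38 ± 0.40 in Ha-ras tumours (interaction −3.54 ± 0.52, adjusted p = 0.000657). In Abcd2 phenobarbital control 6 read 3.90 against 5.85 and 5.96, and without it the gene also fell in Ctnnb1 tumours (−0.83, adjusted p = 0.0296).

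Cyp2b9, a P450 that phenobarbital can induce, is another gene in which the controls differ. Untreated controls read 7.76, 6.18 and 7.12 and phenobarbital controls 9.02, 11.78 and 10.05, while Ha-ras tumours read 10.87, 10.47 and 10.79 and Ctnnb1 tumours 8.08 to 10.58 (median 8.60). The tumour types overlapped, the controls lay apart, and the interaction was −4.70 ± 0.99 (adjusted p = 0.0101). Cyp2b10, the standard marker of CAR activity, read 12.41, 12.71 and 12.73 in phenobarbital controls and 12.43 to 13.31 (median 12.76) in Ctnnb1 tumours, against 8.33, 7.48 and 6.82 in untreated controls and 8.93, 6.04 and 7.17 in Ha-ras tumours, with an interaction of 0.37 (95% interval −1.06 to 1.79, adjusted p = 0.837).

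Over 23 measured CAR targets, 7 interactions were positive and 1, that of Cyp2b9, negative (2.14% and 3.29% over all genes). The median was 1.03, and 0.62 without Ha-ras tumour 2. Gsta2, a glutathione transferase, fell by 2.59 ± 0.29 on the log2 scale in Ha-ras tumours (interaction 3.28 ± 0.37, adjusted p = 6.82e-05) and Cyp2c37, a P450, by 3.12 ± 0.32 (interaction 2.56 ± 0.41, adjusted p = 0.00138). Gstm2, another glutathione transferase, rose by 1.79 ± 0.25 in Ctnnb1 tumours (interaction 2.68 ± 0.39, adjusted p = 0.000563). Probe sets of the Cyp2, Cyp4a and Gst families are often similar in sequence, and which family member such a probe set measured is uncertain.

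Of 23 measured markers of fetal liver and liver tumours, 17 rose in Ha-ras and 6 in Ctnnb1 tumours, and 7 had a negative interaction (3.29% over all genes) with none positive (median −1.56). Spink1, a trypsin inhibitor, read 5.53, 6.06 and 6.79 in untreated controls and 10.92, 11.29 and 11.09 in Ha-ras tumours, and 3.88, 5.03 and 5.18 in phenobarbital controls against 4.17 to 6.69 (median 5.05) in Ctnnb1 tumours. Its interaction was −4.47 ± 0.73 (adjusted p = 0.00149). Afp, the fetal serum protein, rose in both by 4.33 ± 0.59 and 4.17 ± 0.70, with an interaction of 0.15 (95% interval −1.78 to 2.09, adjusted p = 0.958). The count of 7 was 4 without Ctnnb1 tumour 5, Ha-ras tumour 1, phenobarbital control 4 or untreated control 2, and 3 without Ha-ras tumour 2 or untreated control 1.

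Other genes rose in both tumour types by unequal amounts. Igfbp1, a binding protein of insulin-like growth factors, read 12.10, 11.24 and 10.71 in phenobarbital controls, 12.76 to 13.06 (median 12.94) in Ctnnb1 tumours, 10.70, 10.83 and 10.77 in untreated controls and 13.94, 14.13 and 13.58 in Ha-ras tumours. Both tumour types lay above their controls, with rises of 1.55 ± 0.20 and 3.11 ± 0.24 (interaction −1.56 ± 0.31, adjusted p = 0.0072). Itga6, an integrin subunit, rose by 1.06 ± 0.19 and 2.73 ± 0.23 (interaction −1.67 ± 0.30, adjusted p = 0.00296). Psat1, of serine synthesis, rose by 1.09 ± 0.29 and 3.45 ± 0.35 (interaction −2.36 ± 0.45, adjusted p = 0.00512), and its rise in Ctnnb1 tumours was lost without phenobarbital controls 4 or 5 (adjusted p = 0.0789 and 0.0845).

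Among 28 serum proteins of hepatocytes, Igfbp1 and Orm2, an acute phase protein, passed the interaction. Orm2 (4.74 ± 1.10, adjusted p = 0.0175) was lost without Ha-ras tumour 2 or untreated controls 1 or 3 (adjusted p up to 0.0566). Of 29 cell cycle genes, 17 rose in Ctnnb1 tumours (6.07% over all genes). In Ha-ras tumours 13 rose and 1 fell (7.21% and 6.33% over all genes). None passed the interaction. For Mki67, the proliferation marker, the interaction was −0.57 (95% interval −2.01 to 0.88, adjusted p = 0.729). None of 19 interferon response genes passed it either.

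**Figure D5:**
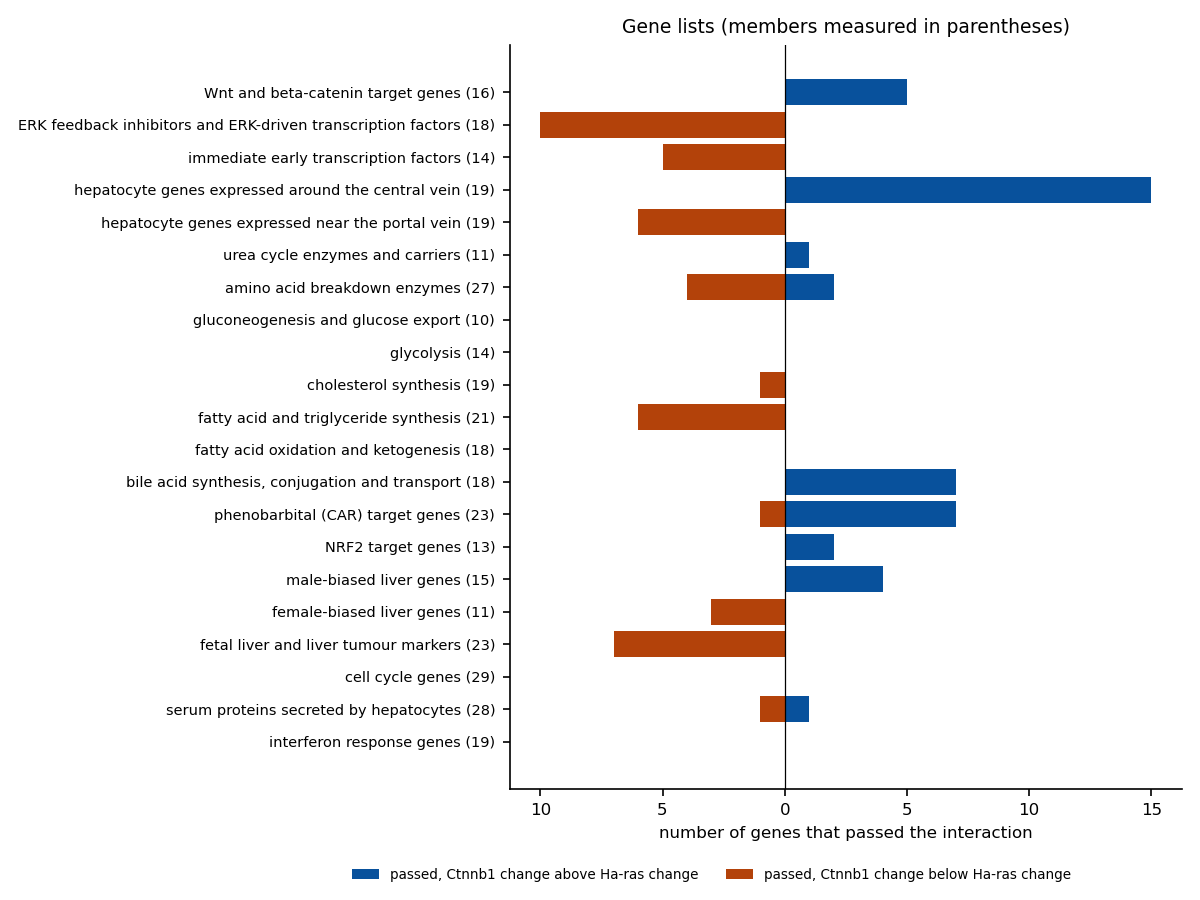
Members of each gene list with a positive or a negative interaction at an adjusted p under 0.05 (x axis, number of genes, negative to the left), for the lists on the y axis. The longest bars are the 15 positive pericentral genes and the 10 negative ERK feedback genes, and cell cycle, interferon, glycolysis, gluconeogenesis and fatty acid oxidation have none.

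Markers of other cell types were measured in the same arrays, where fewer cells of a type and less RNA per cell cannot be told apart. Of 14 stellate cell and fibroblast markers none passed the interaction, and 7 fell in Ctnnb1 and 6 in Ha-ras tumours. Their mean level was 7.42 to 8.18 in Ctnnb1 and 7.55 to 8.17 in Ha-ras tumours, below 8.30 to 8.67 in phenobarbital and 8.37 to 8.60 in untreated controls. None of 13 endothelial and 5 neutrophil markers passed the interaction. The mean level of 7 hepatocyte markers stayed within 14.01 to 14.29 in all groups, and 1 of them passed, Cyp2e1 of the pericentral list.

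Macrophage markers were lower in Ha-ras tumours 1 and 2 (mean 7.10 and 7.39) than in Ha-ras tumour 3 (8.97) and all other groups (7.97 to 9.19). Of 14, 1 passed the interaction, Cd14, a receptor for bacterial lipopolysaccharide that hepatocytes can also express (−2.32 ± 0.56, adjusted p = 0.0225), lost without Ha-ras tumour 2, phenobarbital control 4 or untreated controls 1 or 2 (adjusted p up to 0.0753). Without Ha-ras tumour 3, 4 macrophage markers had a positive interaction. Of 12 lymphocyte markers, Ighm passed (3.42 ± 0.92, adjusted p = 0.0408). It held in 5 of 16 runs (adjusted p up to 0.0986), read 8.60 to 12.57 in Ctnnb1 tumours, and of its 11 probe sets 2 passed. Of 3 red cell markers, Alas2 passed (2.01 ± 0.50, adjusted p = 0.0252), lost in 5 of 16 runs (adjusted p up to 0.077).

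Cholangiocyte markers had a higher mean in Ha-ras tumours (5.61 to 5.92) than in the other groups (4.65 to 5.31). Of the 7 markers only Tspan8 rose in Ha-ras tumours, and the median change of the list there was 0.04. Tspan8, a tetraspanin also on the fetal list, read 12.51, 13.54 and 12.29 in Ha-ras tumours and up to 9.85 elsewhere. Its interaction of −4.20 ± 0.96 (adjusted p = 0.0166) was lost without Ha-ras tumour 2 or untreated control 1 (adjusted p = 0.0525 and 0.0573). Sox9 passed with −0.87 ± 0.23 (adjusted p = 0.0403), lost in 9 of 16 runs (adjusted p up to 0.119), and the other 5 of the 7, with the defining keratins Krt19 (at most 5.82) and Krt7 (at most 4.43) at the dim end of the scale, did not. The part of these cell types in the differences above was not tested.

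For several named genes the choice of probe set matters, since other probe sets of the gene, with a lower mean, did not pass. The other probe set of Lgr5 gave an interaction of 0.28 (adjusted p = 0.326), that of Znrf3 0.12, that of Spry2 −0.15 and that of Cyp27a1 0.29. For Lepr and Rasgrp2, 1 other probe set each did not pass the interaction (−0.08 and −0.58), while the others did. At least 1 other probe set also failed it for Tbx3, Slco1b2, Kif5c, Ipcef1, Golm2, Hgd, Scn8a, Spry4, Abcd2, Ccn4 and Tnfrsf19. So did 1 of Gclm, Uroc1, Pigr, Arg2, Il1rn and Sox9. In the opposite class, no other probe set of Lepr or Scn8a passed the Ctnnb1 fall (adjusted p of 0.0705 or more). No other one of Tbx3 passed the Ctnnb1 rise, and none of Avpr1a, Kcnk1 or Gclm the Ha-ras fall. Other probe sets of Cyp7a1 and Rasgrp2 did move in opposite directions. Of 84 other probe sets of 42 genes, 37 gave the same call and direction.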

How the data were processed

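RNA of 16 mouse liver samples was hybridised to Affymetrix arrays. The deposited values are log2 intensities per probe set, made by the authors with RMA in R 2.14.1, per the submitters' processing notes, and were used without further normalization. RMA already equalises the distribution between arrays, so a shift of all transcripts would not be seen.

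Of 45101 probe sets, 64 were array controls, 34945 had 1 symbol in the platform annotation, 932 several and 9160 none. RefSeq (GRCm38.p6) matched 34741 by Entrez number and renamed 0. The probe set with the highest mean stood for each of 18193 genes, 9010 of which have more than 1. One coefficient per group was fitted with lmFit and eBayes (limma 3.58.1, R 4.3.3, no covariate), and p-values were adjusted by Benjamini-Hochberg over all genes. The scripts were tested on simulated data.

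Members and lists (21 of pathways, 8 of cell type markers) were chosen with earlier results of these data known. Named genes are, per class and direction, from the 8 with the largest interaction, and per list up to 5 that passed and 2 against the list's median, with Ctnnb1, Mki67, Dusp6, Afp, Cyp2b10, Lgr5, Axin2 and Glul always named. The choice among these was made with their values in view. Unnamed gene models were left out, and 1 transcript is not reported here. Alternatives were other normalizations, probe set rules, thresholds, covariates and omitted arrays. The number of arrays limits the precision.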

Additional observations from a re-analysis of the deposited data

Results flagged for a closer look

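Ctnnb1 tumour 6 lay far below the other 6 Ctnnb1 tumours, by the gap to its nearest neighbour over the range of the group (Dixon's ratio), in Csrp2 (9.59), Tbx3 (8.30), Notum (7.22), Cyp1a2 (12.64), Glul (12.07) and Axin2 (6.84), and far above them in Egr1 (9.58). Ctnnb1 tumour 7 was the low one in Cyp2d9 (12.95). These 8 values came from 93 genes checked in the 7 Ctnnb1 tumours. Chance alone gives about 1 such value in 20 groups. Groups of 3 were not checked.

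By the interaction term, the tumour effects differed from each other in 988 genes.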

How the results depend on the processing

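The 988 interactions became 419 at an adjusted p under 0.01 and 1547 with array weights, and 648 to 1177 with 1 array left out. The opposite class of 83 became 36 with 3 arrays in every group (Ctnnb1 tumours 4 to 6, chosen after seeing the data). It became 41 with the Gapdh difference between 3′ and 5′ ends in the fit, 21 at 0.01, 133 with array weights and 54 to 105 with 1 array left out. The Ctnnb1 class of 169 became 83, 89 and 36 under the first 3 of these settings, 83 at a 2-fold minimum and 79 to 231 with 1 array left out. The Ha-ras class of 536 became 237 at 0.01, 879 with array weights, 341 at a 2-fold minimum and 350 to 651 with 1 array left out. The counts stayed within 1.5 times under the remaining settings other than the replicate block. A similar count did not always hold the same genes. Without phenobarbital control 6 and Ctnnb1 tumours 6 and 7, 51 of the 83 opposite and 97 of the 169 Ctnnb1 genes kept their class. By the mean of all probe sets 52 and 102 did, and under median centring 82 and 152.

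Replicate numbers were not taken as pairs. After subtraction of group means, same-numbered tumours and controls correlated at −0.116 to 0.13 in the Ctnnb1 and 0.03 to 0.399 in the Ha-ras comparison. The 2 of 6 that matched their own number best were Ha-ras numbers 2 and 3. So few numbers per comparison cannot settle whether samples were paired. With a fixed replicate block, 679 genes passed the interaction, 52 were in the opposite class and 82 in the Ctnnb1 class, and Afp read −0.25. Ctnnb1 tumours without a control of their number do not enter that estimate, so the Ctnnb1 change came from tumours 4 to 6. The interactions were therefore those of the setting with 3 arrays in every group, under another test. The fixed block ended the calls of 10 of the 93 named genes, Arg2, Bex1, C6, Ccn4, Cd14, Ctnnb1, Cyp8b1, Hgd, Notum and Sox9 (adjusted p between 0.0515 and 0.18). With a random replicate block 1078 passed.

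The sign of some interactions that did not pass turned: Afp (−0.25 with 3 arrays in every group, −0.090 as the mean of its probe sets, −0.46 by the probe set of highest variance, −0.46 and −0.40 by others, −0.69 to 1.20 with 1 array left out), Mki67 (0.020 with the Gapdh difference, −1.07 to 0.11 with 1 array left out) and Cyp2b10 (−0.079 by another probe set, −0.30 to 1.14 with 1 array left out). Other probe sets also turned the sign of passing genes: Ctnnb1 (0.31, also that of highest variance), Scn8a (0.17), Sox9 (0.16), Spry4 (0.45) and Ighm (−0.11, −0.17, −0.043 and −0.34). Repeated quantile normalization and median centring changed no call of the 93 named genes. With 3 arrays in every group 14 of them lost their call, and with the Gapdh difference 11. The cause was not tested.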
